A study of Mus musculus with 12 samples.

Results

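The data compared J1 mouse embryonic stem cells given retinoic acid (RA) for 24 h with cells given its solvent, dimethyl sulfoxide (DMSO), for 24 h. The 6 samples whose titles carried RA or DMSO at 24 h were taken, 3 in each group, of the 12 samples in the series, which also held cells given vitamin C or water on another array design. J1 is an established mouse embryonic stem cell line, a culture of pluripotent cells. RA was given at 1 µM and DMSO at 1 µL. Both groups grew on gelatin in Knockout DMEM with serum replacement and leukaemia inhibitory factor (LIF), at 1000 U/ml, the cytokine that keeps mouse stem cells undifferentiated, so LIF was present during RA treatment as well. The labels name no genetic change in either group. Total RNA of each sample was labelled with Cy3 and hybridised alone to a one-colour Agilent array. Whether the 3 samples of each group were grown as separate cultures is not stated, so the p-values describe only how far these arrays spread, and that spread may be technical.

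Retinoic acid is made from vitamin A inside cells and acts through the nuclear receptors RAR and RXR, which sit in pairs on DNA at repeats of a short half-site. Without ligand the pair holds corepressors, and with ligand it holds coactivators. In mouse embryonic stem cells RA is widely used to start differentiation, and the Hox genes and the enzymes that break RA down are its textbook targets.

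A level below is the log2 signal of a gene's brightest probe over the array's 75th percentile, so that 0 is the signal under which 75% of spots lie. A difference is the mean level in RA minus the mean level in DMSO. Levels are compared between samples for a gene and not between genes, since probes differ in brightness. Tests are those of limma, a linear model with shared variance across genes, and a gene was called where its Benjamini-Hochberg adjusted p over all 16015 genes tested was under 0.05.

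Of 16015 genes, 5742 (35.9%) were higher and 6745 (42.1%) were lower in RA, so 78% were called, and the median difference of all tested genes was -0.07. Changes of at least 2-fold numbered 2792 higher (17.4%) and 2406 lower (15%). Under this processing larger changes were more often rises: 629 genes were at least 8-fold higher and 313 at least 8-fold lower, and 71 and 16 passed 64-fold. The counts at 8-fold and 64-fold were not made under other scalings or background corrections. Across genes, correlations were 0.9974 to 0.9976 between DMSO samples, 0.9918 to 0.9954 between RA samples and 0.8982 to 0.9032 between a DMSO and an RA sample. With 78% of genes called, a call by itself says little, and the sizes, shares and medians below are to be read against these values.

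The 3 DMSO arrays were on one slide and the 3 RA arrays on another, so slide and treatment cannot be told apart. Agilent's spike-in RNAs, added in equal amount to each labelling, gave a check on the scaling. Of 10 spike-ins, 8 were well above background on every array, with 35 spots each. After the 75th percentile scaling all 8 were higher in RA, by 0.17 to 0.59 log2, with a median of 0.36. Measured against them, the 75th percentile of the RA arrays was 1.29-fold lower, a log2 difference of -0.36, and -0.20 without RA replicate 3, which lay farthest from the rest. Scaling on the spike-ins moved the median of all genes to -0.44 and gave 3218 genes higher and 7631 lower, so that rises made up 29.7% of calls against 46% with the 75th percentile. Scaling on the array median gave 3974 higher and 8795 lower. A rise of less than about 0.36 log2 therefore depended on the scaling, and directions are given below for genes that kept them under both scalings unless stated otherwise. Sizes also depended on how the background was treated. Normexp models the background, and here an offset of 50 was also added, which itself shrinks the differences of dim genes. With normexp and this offset, 135 of the 298 tested genes named here changed by over 1.5 times. Rises were smaller by a median of 0.90 log2 and falls by 0.19. The parts of the offset and of the background model were not told apart. Folds given below as at least a value are bounds under the main processing, and with normexp some differences were smaller than the bound.

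**Figure D1:**
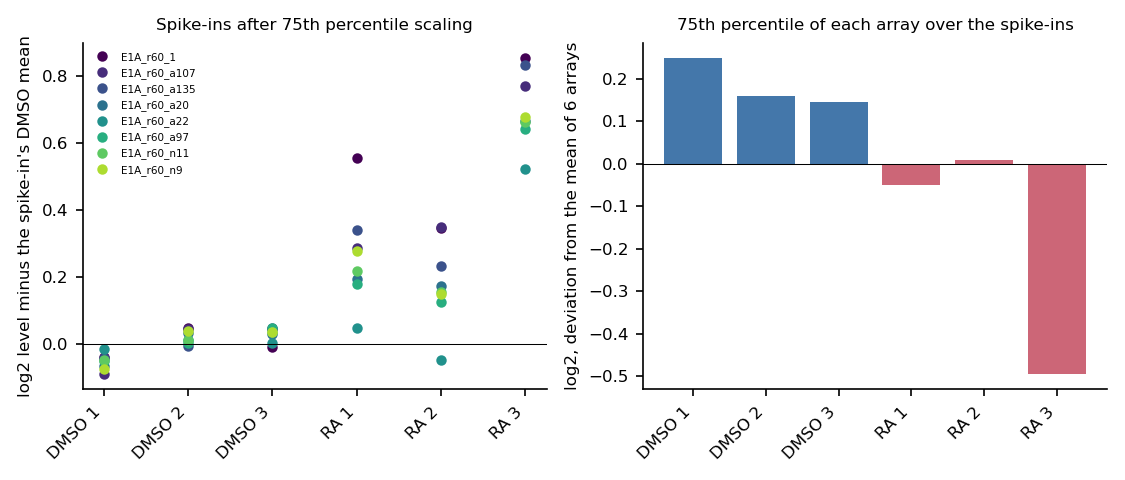
Left: level of each of the 8 spike-in RNAs on the 6 arrays after scaling to the 75th percentile, in log2 units relative to its own mean in DMSO. Right: the 75th percentile of each array relative to the spike-ins, in log2 units around the mean of the 6 arrays. The spike-ins lie highest on RA replicate 3, whose 75th percentile was 0.49 below the mean of the arrays.

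**Figure D2:**
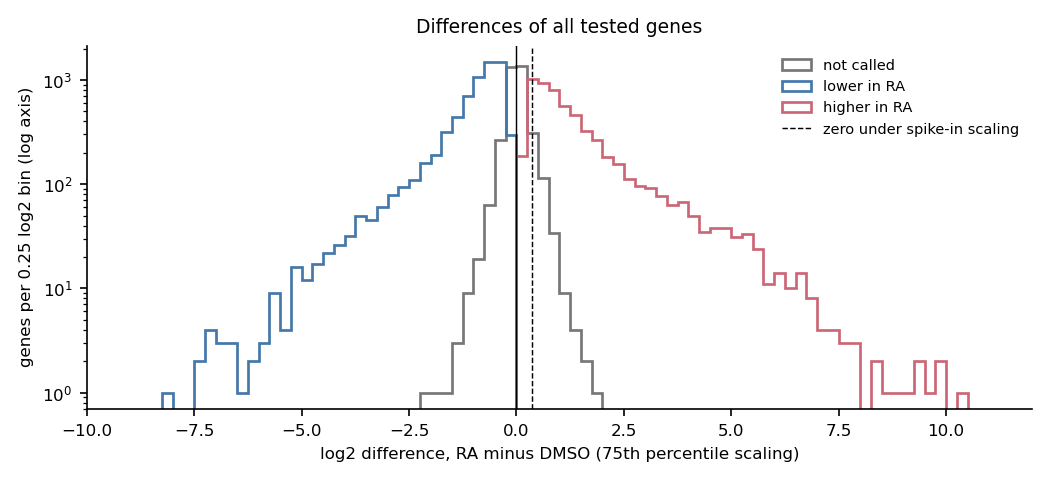
Number of tested genes, on a log axis, in each bin of the log2 difference between RA and DMSO, drawn separately for genes called higher, called lower and not called. The solid line is 0 under the 75th percentile scaling and the dashed line is 0 under spike-in scaling. Under the processing drawn here, the tail of large rises is longer than that of large falls.

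The stem cell label was checked against 10 markers of undifferentiated embryonic stem cells. All 10 were above background on every array. Their summed level, the log2 of the sum of their signals over the 75th percentile, was 9.22 to 9.26 in DMSO and 6.41 to 6.58 in RA, and 9 fell and 1 rose. Of 16 markers of fibroblasts and feeder cells 13 were tested, of which 11 rose and 1, Thy1, fell, with a summed level of 5.55 to 5.63 in DMSO and 7.99 to 8.17 in RA. Lum, Postn and Fap of that list were not well above background on any array. Blood cell markers had a summed level of 2.03 to 2.19 in DMSO and 0.57 to 1.32 in RA, with 3 of 6 higher and 1 lower, and Spi1 was among those not well above background. The endothelial markers lay at 4.43 to 4.49 and at 3.48 to 3.65, with 1 of 8 higher and 6 lower, and Cdh5 and Emcn were not well above background. The part of other cells in the results was not tested.

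The genes that bind and break down RA changed by large factors. Cyp26a1, an enzyme that oxidises RA for removal, had levels of -2.82, -2.82 and -2.94 in DMSO and 5.54, 5.35 and 5.53 in RA. The 3 RA samples lay close together and far above the DMSO samples. The rise was 323-fold (log2 difference 8.34, SE 0.08, limma adjusted p = 4.93e-08). Its relative Cyp26b1 lay at -4.20, -3.98 and -4.24 in DMSO and at 5.63, 5.65 and 6.15 in RA. This was a rise of 987-fold, the largest among genes above background on all 6 arrays. The third family member, Cyp26c1, was not well above background on any DMSO array and was at least 3.01-fold higher in RA. Crabp2, which carries RA to its nuclear receptors, lay between 1.95 and 2.26 in DMSO and between 7.68 and 7.82 in RA and rose 50.1-fold, and Crabp1, a cytosolic RA binding protein, rose 7.54-fold. Another cytochrome P450 with a reported activity on RA, Cyp2s1, fell 11.5-fold, from levels of 1.57 to 1.81 to levels of -2.08 to -1.74. Of the 8 genes in this list 6 rose and 2 fell, with a median difference of 3.13, or 2.25 with Cyp26c1 at its lower bound.

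Uptake and storage of vitamin A were also represented. Stra6, the membrane receptor that takes retinol from its plasma carrier, had levels of -3.06, -3.20 and -3.38 in DMSO and 3.12, 3.36 and 3.48 in RA. No sample overlapped between the groups, and the rise was 92.5-fold (log2 difference 6.53, SE 0.12, limma adjusted p = 1.83e-07). Dhrs3, which turns retinaldehyde back into retinol, rose 43.8-fold, from 0.91 to 1.19 in DMSO to 6.39 to 6.61 in RA. The retinol dehydrogenase gene Adh1 rose by 5.39 log2, but was above background on 2 of the 3 DMSO arrays, where it ranged from -8.08 to -5.63. Enzymes that make RA from retinaldehyde rose by less, with Aldh1a1 5.02-fold higher and Aldh1a2 higher by 0.71 log2, a call lost under spike-in scaling (0.35). Adh5 and Rbp7 fell by 1.06 and 1.47 log2. In all, 11 of 17 tested genes of synthesis, uptake and storage rose and 4 fell, with a median of 0.64, and 7 rose and 4 fell under spike-in scaling.

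The receptors for RA moved apart. Rarb, a receptor gene that is itself a target of RA, lay at -1.14, -1.19 and -1.23 in DMSO and at 3.09, 3.08 and 3.09 in RA. Samples within each group were nearly equal, and the rise was 19.4-fold (SE 0.06 log2, limma adjusted p = 8.76e-08), with a second probe at 3.43. Rarg went the other way, from 5.30, 5.04 and 5.15 to 1.5, 1.61 and 1.40, a 12.7-fold fall (limma adjusted p = 4.76e-07). Rara fell 1.74-fold, and its other probe lay at -1.20. Among the RXR partners, Rxrg was 1.97-fold higher on its brightest probe while its other probe lay at -0.51. Of the coactivators and corepressors, the acetyltransferase gene Crebbp rose 8.32-fold, from 3.09 to 3.15 in DMSO to 6.12 to 6.26 in RA. Nrip1, a ligand-dependent corepressor, rose 5.43-fold, and the coactivator Ncoa3 and the corepressor Ncor1 fell by 1.20 and 0.70 log2. Across 20 receptor and coregulator genes 10 rose and 5 fell with a median of 0.26, and under spike-in scaling 4 rose and 5 fell with a median of -0.10.

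**Figure D3:**
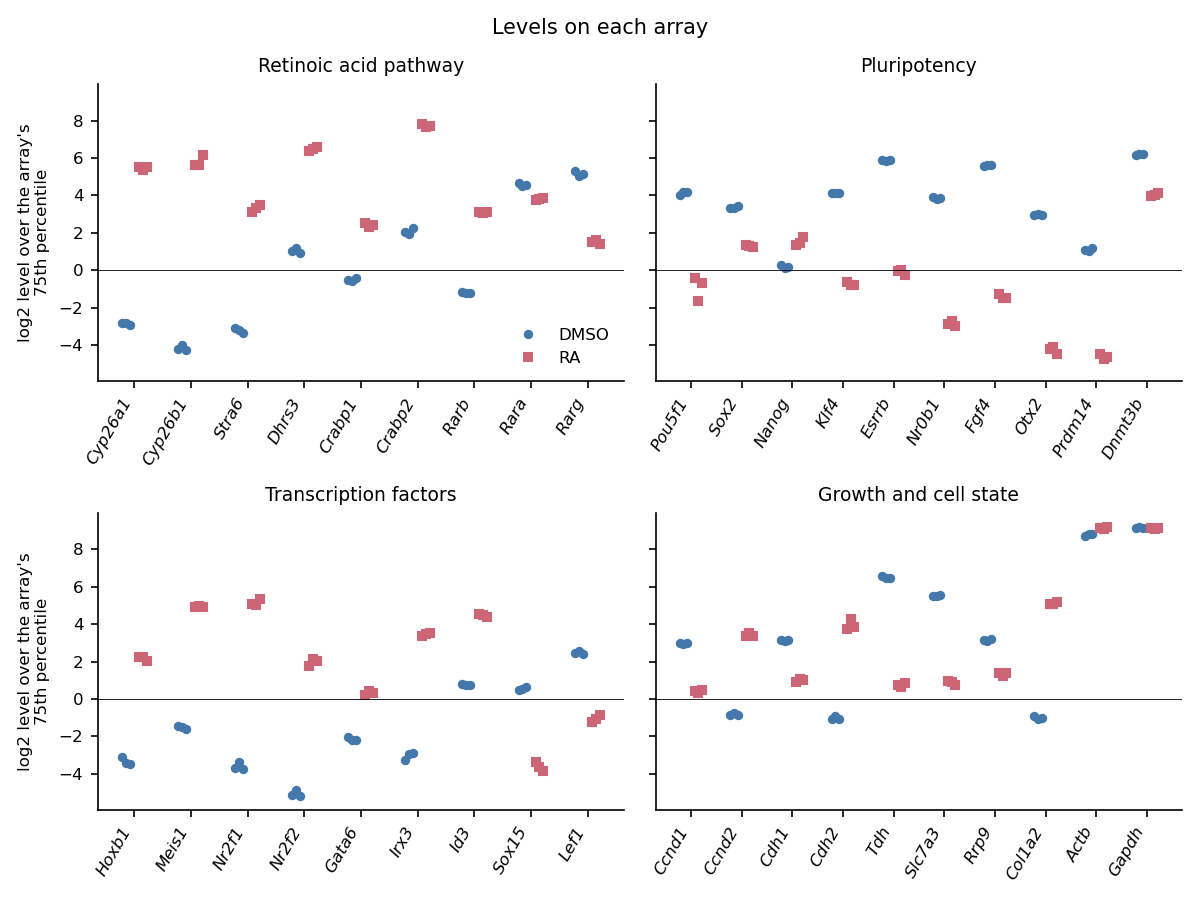
Level of 38 genes on each array, in log2 units over the array's 75th percentile, with circles for the 3 DMSO samples and squares for the 3 RA samples. In the pathway panel Cyp26a1, Cyp26b1 and Stra6 move from below to far above the 75th percentile while Rarg falls, and in the pluripotency panel the RA samples of Nanog lie above its DMSO samples, unlike those of Pou5f1 and Sox2.

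Promoter sequences were searched for the textbook RAR and RXR element, to set its letters beside the rises. The 250 bases before the start of each gene, from RefSeq on GRCm38.p6, were scanned on both strands for a pair of half-sites in direct repeat with a spacing of 1, 2 or 5 bases. Each half-site could take any of the 4 readings of the textbook consensus, which are AGGTCA and its usual variants AGTTCA, then GGGTCA, and then GGTTCA. The element of Rarb is one of those the consensus is known from, so its match is no independent case. Overlapping matches were kept. A match was found for 44 of 12712 tested genes with a promoter (0.346%), and one with the spacing of 5 for 7 (0.0551%). Among 440 genes at least 8-fold higher in RA, 4 (0.909%) held a match and 3 (0.682%) the spacing of 5. Among 2116 genes at least 2-fold higher, 12 (0.567%) held a match and 5 (0.236%) the spacing of 5. Among 1903 genes at least 2-fold lower, 6 (0.315%) held a match and 2 (0.105%) the spacing of 5. These shares rest on few genes and a match is a description of the letters. The 4 windows among the strongest rises are shown to let the repeats be read beside the values, 5′ to 3′ along the gene's strand, with the half-sites in capitals. Those of Cyp26a1, Slc25a21 and Ppbp carry the repeat on the opposite strand, so its reverse complement is in capitals.
Cyp26a1: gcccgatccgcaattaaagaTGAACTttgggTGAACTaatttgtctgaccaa
Rarb: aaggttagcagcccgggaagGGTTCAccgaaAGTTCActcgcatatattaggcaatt
Ppbp: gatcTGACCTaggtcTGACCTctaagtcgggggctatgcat
Slc25a21: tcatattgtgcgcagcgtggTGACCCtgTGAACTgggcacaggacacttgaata
The windows lie at chr19:37697756-37697807 (plus strand), chr14:16575493-16575549 (minus strand), chr5:90768268-90768308 (plus strand) and chr12:57197563-57197616 (minus strand), in that order.

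The repeat ended 16 bases before the start in Cyp26a1 and 37 bases before it in Rarb, both with a spacing of 5. In Ppbp, a platelet chemokine gene, it lay 246 to 230 bases before the start, and Slc25a21, a mitochondrial carrier, held a spacing of 2 at 124 to 111 bases. Neither Ppbp nor Slc25a21 was well above background on a DMSO array. They were at least 10.04-fold and at least 23.9-fold higher in RA. No match in this window says only that these letters are absent from it, as for Cyp26b1 and Stra6.

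Among the other nuclear receptors the orphan receptors Nr2f1 and Nr2f2, regulators of embryonic patterning, rose and 3 receptors of the stem cell network fell. Nr2f1 had levels of -3.68, -3.35 and -3.73 in DMSO and 5.09, 5.05 and 5.32 in RA. The groups stood wide apart on both of its probes, with differences of 8.74 and 9.27 log2 (limma adjusted p = 9.52e-08 on the first). Nr2f2 rose 132-fold. Nr0b1 fell 106-fold, from 3.82 to 3.92 in DMSO to -2.97 to -2.72 in RA. Esrrb fell 62.1-fold and Nr5a2 by 5.12 log2. Of 30 tested, 11 rose and 11 fell, with a median of -0.02, so as a family they did not lean to one side. Nr6a1, which represses Pou5f1 in differentiating cells, rose by 0.73 log2 (limma adjusted p = 0.0302), with RA samples at -0.73, -0.72 and 0.15, and was not called under spike-in or median scaling or when any 1 DMSO sample was left out.

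Hox genes specify position along the body axis and lie in 4 clusters. Of 39 on the array 30 were tested, and 28 rose and 1 fell, with a median of 5.59, or 5.44 with genes below background in DMSO at their lower bounds. Hoxb1 lay at -3.12, -3.41 and -3.46 in DMSO and at 2.27, 2.27 and 2.04 in RA. The DMSO levels were above background, and the rise was 46.2-fold (limma adjusted p = 2.57e-07). Hoxb6 rose 618-fold, from -4.63 to -4.46 up to 4.64 to 4.78. Hoxd4 and Hoxc9 were not well above background on any DMSO array and were at least 340-fold and at least 328-fold higher in RA, and Hoxc5 and Hoxd3 at least 158-fold and at least 46.4-fold.

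By cluster, all 8 tested Hoxa genes and all 6 tested Hoxd genes rose, as did 5 of 6 Hoxc and 9 of 10 Hoxb genes, with medians of 4.22, 4.92, 7.91 and 6.50 log2. Along the clusters the rise reached from paralog 1 to paralog 9. All 15 genes of paralogs 1 to 5 and all 12 of paralogs 6 to 9 rose, with medians of 6.01 and 5.79. The smallest of these rises was that of Hoxa6, 0.51 log2, and it was not called under spike-in or median scaling, nor when DMSO replicate 1 or 2 or RA replicate 2 or 3 was left out. Of the 12 genes of paralogs 10 to 13, 8 were not well above background on any RA array and 3 were tested. Hoxd13 rose by 2.33 log2, Hoxb13 fell by 0.83 and Hoxc13 was not called.

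**Figure D4:**
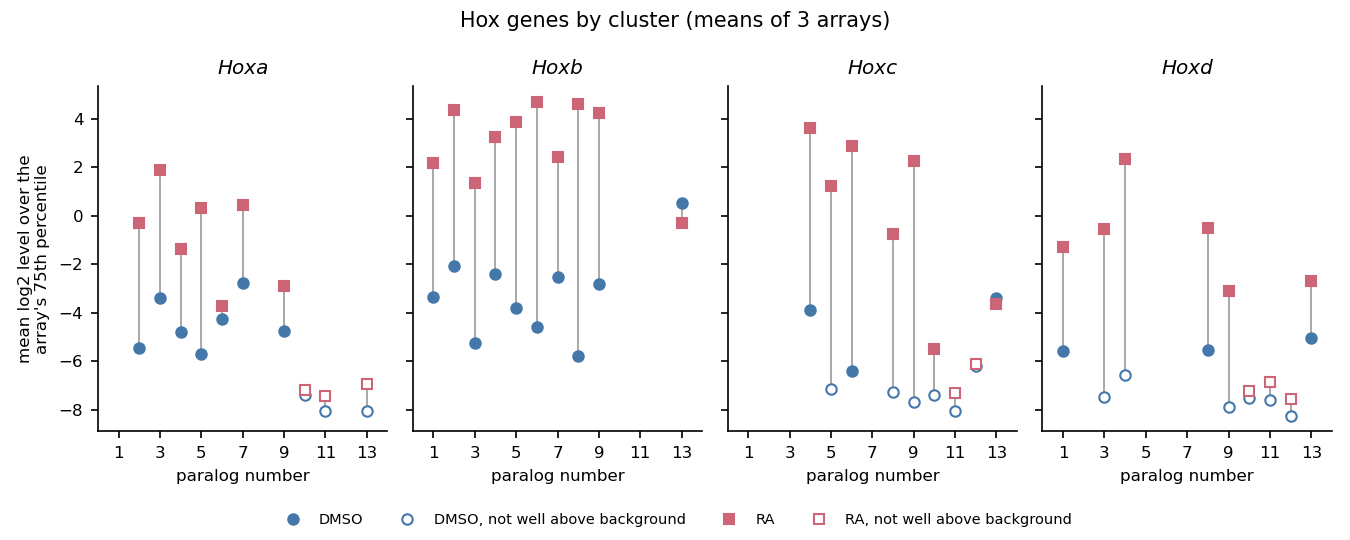
Mean level of Hox genes in DMSO (circles) and RA (squares), in log2 units over the array's 75th percentile, by cluster and paralog number, with open symbols where no array of the group was well above background. Vertical lines join the groups for a gene. The lines are mostly long from paralog 1 to paralog 9, with shorter ones in Hoxa6 and Hoxa9. Beyond paralog 9 they are short or absent, except in Hoxd13 and in Hoxc10, which was not well above background in DMSO.

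The TALE cofactors that bind DNA with Hox proteins rose in part. Meis1 had levels of -1.42, -1.49 and -1.62 in DMSO and 4.91, 4.97 and 4.90 in RA, an 86.7-fold rise (limma adjusted p = 6.41e-08) with no overlap. Meis2 rose 18.7-fold and Pknox2 10.1-fold, and Meis3 rose by 2.57 log2. Of the Cdx genes, activators of posterior Hox genes, Cdx1 rose by 0.87 and Cdx2 (0.86) was not called. Across 13 cofactors and Cdx genes 9 rose and 1 fell.

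The core and naive pluripotency genes fell together, with 33 of 36 lower, 3 higher and a median of -3.46. In bulk RNA, fewer cells of a type and less RNA in each cell cannot be told apart. Pou5f1, which encodes OCT4, had levels of 4.04, 4.16 and 4.17 in DMSO and -0.41, -1.66 and -0.69 in RA. The RA samples spread more widely but lay far below all DMSO samples, and the fall was 33-fold (SE 0.31 log2, limma adjusted p = 1.74e-05). Sox2, its partner on DNA, fell less, 4.2-fold, from 3.32 to 3.42 down to 1.24 to 1.34. Klf4, a factor of the naive state, fell 29.3-fold, and Klf2 by 4.25 log2. Fgf4, the growth factor through which stem cells prompt their own differentiation, fell 130-fold, from 5.59 to 5.65 down to -1.47 to -1.29. Tcl1, a cofactor of AKT, fell 116-fold and Prdm14, a repressor that guards the naive state, 51.9-fold. Zfp42 fell by 3.92, Tfcp2l1 by 3.46, Utf1 by 4.80 and Dppa3 by 4.10 log2.

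Against this list, Nanog had levels of 0.29, 0.15 and 0.19 in DMSO and 1.36, 1.46 and 1.78 in RA. All RA samples were higher than all DMSO samples. The rise was 2.5-fold (log2 difference 1.32, SE 0.12, limma adjusted p = 9.1e-05), and it rests on a single probe. Lin28b, an RNA binding protein that blocks let-7 processing, rose 2.41-fold on one probe and by 1.33 log2 on another. Its relative Lin28a differed by 0.43 and was not called under spike-in scaling. Otx2, which drives the step from the naive to the formative state and later the anterior brain, fell 152-fold, from 2.95, 3.02 and 2.98 to -4.22, -4.11 and -4.45, and Dnmt3b, a de novo DNA methyltransferase of formative cells, fell 4.53-fold with 2 further probes at -2.56 and -2.54.

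Families of transcription factors were split between the programmes of stem cells and embryo. In the Klf and Sp family 15 of 25 fell and 8 rose, or 16 and 5 under spike-in scaling, with Sp5 higher by 3.03 log2. In the Sox family 11 of 18 rose and 3 fell. Sox15 fell 17.8-fold with Sox2, and Sox6 and Sox9, the latter a factor of cartilage and neural crest, were at least 3.78-fold and at least 13.1-fold higher from below background. Sox17, of endoderm, rose by 2.57 and Sox1, of neural progenitors, by 2.32. Gata6, of primitive endoderm and heart, lay at -2.05, -2.18 and -2.21 in DMSO and 0.22, 0.45 and 0.31 in RA. Each RA sample was above each DMSO sample, a 5.56-fold rise (limma adjusted p = 1.44e-06). Gata3 rose 29.5-fold, Gata2 by 2.53 and Gata4 by 1.69. Tbx2 rose by 6.17 log2 from levels that were above background on 1 DMSO array, Tbx1 rose by 2.95, Tbx18 was at least 2.75-fold higher from below background, and Tbx3, a naive-state gene, fell by 2.21.

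Homeobox genes outside the Hox clusters rose more often than they fell. In the LIM, Msx, Dlx and Nkx list 26 of 37 rose and 9 fell, with a median of 1.43, and in the list of Pax, Eya, Irx, Zic and related genes 15 of 26 rose and 7 fell, with a median of 1.37. Irx3, of the posterior neural plate, had levels of -3.25, -2.93 and -2.88 in DMSO and 3.35, 3.49 and 3.55 in RA. The 89.5-fold rise (limma adjusted p = 1.69e-07) was joined by Irx5, by 5.08 from levels above background on 2 DMSO arrays, and Irx1, by 4.53 log2. Pitx1, above background on 1 DMSO array, rose by 4.73, Msx1 by 3.67, Pax3 by 4.49 and Pax6 by 3.38, and Pax9 was at least 6.93-fold higher from below background. Zic5 fell by 2.23. Zic1 fell by 1.11 on its brightest probe while another of its probes lay at 7.53, so its direction is uncertain.

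Forkhead and basic helix-loop-helix genes held some of the largest changes, in both directions. Foxc1 and Foxc2, of paraxial mesoderm, were not well above background on a DMSO array and were at least 54.1-fold and at least 64.9-fold higher. Foxb1, also below background in DMSO, was at least 24.2-fold higher. Foxd2 rose 119-fold, Foxd1 by 5.55 and Foxa1 by 4.93 log2, and Foxd3, which maintains pluripotency, fell by 6.60 to levels above background on 1 RA array. Across 36 forkhead genes 17 rose and 11 fell, and 12 and 12 under spike-in scaling. Of all 16015 tested genes 35.9% rose and 42.1% fell, and 3218 and 7631 did so under spike-in scaling. Id3, a dominant-negative partner of helix-loop-helix factors and a target of BMP signals, lay at 0.79, 0.74 and 0.75 in DMSO and at 4.53, 4.48 and 4.37 in RA. The groups did not overlap, and the rise was 13-fold (limma adjusted p = 1.62e-07). Id1 and Id2 rose by 2.91 and 3.64, and Hand2 and Twist2 were at least 9.99-fold and at least 10.9-fold higher from below background. Of the 28 helix-loop-helix genes 12 rose and 12 fell, the falls including Tcf15 (-4.97). Neurod1 and Olig1 were not well above background on any RA array and were at least 5.54-fold and at least 47.9-fold higher in DMSO.

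Lists of primitive and visceral endoderm, early mesoderm and trophoblast genes were mixed in kind but leaned upward. Of 32 genes of primitive and visceral endoderm 24 rose and 4 fell, with a median of 1.54, among them Plat, 6.74 log2, Foxa2, 3.95 log2, Dab2, 3.02, and Pdgfra, 6.95-fold. Hnf4a, a regulator of visceral endoderm, fell by 2.93. Of 20 genes of the primitive streak and early mesoderm 11 rose and 5 fell, or 7 and 5 under spike-in scaling. Meox1, of the somites, lay at -5.24, -5.04 and -4.86 in DMSO and 2.46, 2.58 and 2.41 in RA, a rise of 185-fold (limma adjusted p = 9.52e-08) without overlap, and Eomes, an early mesoderm regulator, fell by 1.24. Among 16 trophoblast markers 10 rose and 5 fell. The falls included Tfap2c (-3.83) and Ascl2 (-1.63), and the rises Peg10 (4.40) and Plac1, at least 13.7-fold from below background.

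The other largest rises among genes above background on all arrays came from several functions. Smoc2, a secreted matrix protein, rose 234-fold, from -5.05, -4.99 and -5.49 to 2.63, 2.79 and 2.66. Tshz1, a teashirt family zinc finger factor, rose 221-fold and Zfp703, a corepressor, 168-fold, from -1.30, -1.43 and -1.43 to 6.04, 6.0 and 6.0. Prss23, a serine protease, rose 128-fold, and Pmp22, a myelin protein, rose by 7.32 log2 on its brightest probe and by 3.31 on its other. Hoxb5, Hoxb9 and Hoxc4 completed these 15 genes with Cyp26b1, Hoxb6, Nr2f1, Cyp26a1, Meox1, Nr2f2 and Foxd2.

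Among genes above background on all arrays, the largest falls outside the pluripotency list included that of Mymx, a small membrane protein known for myoblast fusion. It lay at 6.10, 6.09 and 6.04 in DMSO and at -0.23, -0.19 and -0.25 in RA, a 78.6-fold fall (limma adjusted p = 3.96e-08), and its groups were each tight. Inhbb, a subunit of activin B, fell 70.9-fold, and the threonine dehydrogenase gene Tdh 54.8-fold. Myo1f, an unconventional myosin, fell 47.8-fold. Ly6g6e fell by 5.57, Gtsf1l by 5.53, Cobl, an actin nucleator, by 5.14, and Pla2g10, a secreted phospholipase, by 5.13 log2.

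Some genes crossed the background. In RA, 296 genes were detected on all 3 arrays and had no probe well above background on a DMSO array, and 330 showed the reverse. All 296 were called higher, and 289 of the 330 were called lower, against 35.9% and 42.1% of all tested genes. Both sets were chosen by detection in a single group, which favours a call in that direction, so these calls are no separate result. Of all spots, 61.6% to 65.3% were well above background on RA arrays and 65.6% to 66.2% on DMSO arrays. The part of this difference in detection in the 2 counts was not tested. The highest lower bound outside the Hox and forkhead genes was that of Cxcl5, a neutrophil chemokine, at least 434-fold higher in RA, with RA levels of 2.61, 2.82 and 2.59. Nedd9, a focal adhesion scaffold, and Srpx were at least 68.2-fold and at least 67-fold higher, and Dbx1, a homeobox gene of spinal interneurons, at least 49-fold. In the other direction Chrna9, a nicotinic receptor subunit, lay at 1.40, 1.37 and 1.35 in DMSO, was not well above background in RA and was at least 104-fold higher in DMSO. For Platr10, a noncoding RNA of pluripotent cells, Vrtn, a vertebra number gene, and Crisp3 the bounds were 99-fold, 66.2-fold and 60.6-fold. These bounds depended on the processing. With normexp and its offset of 50, the differences of Cxcl5, Dbx1, Chrna9 and Crisp3 were 5.65, 2.95, -3.69 and -2.92 log2, each smaller than its bound.

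Signalling genes of the Wnt pathway mostly rose. Of 43 tested 29 rose and 11 fell, with a median of 0.93. Among the ligands Wnt4 rose by 4.25 log2, Wnt5a by 2.63 and Wnt11 by 1.82. R-spondins, which raise the response to Wnt, rose as well, Rspo2 by at least 2.90-fold and Rspo3 by at least 13.1-fold, both from below background. Receptors moved both ways, with Fzd8 and Fzd1 higher by 3.29 and 2.87, and Fzd5, the receptor typical of stem cells, 12-fold lower with a second probe at -1.03. The nuclear effector Lef1 lay at 2.47, 2.58 and 2.40 in DMSO and at -1.23, -1.06 and -0.86 in RA. No samples overlapped, and it fell 11.6-fold (limma adjusted p = 1.01e-06). Antagonists split, Sfrp5 rising by 4.92 and Frzb by at least 3.14-fold from below background, and Sfrp4 falling by 5.03 to levels above background on 1 RA array. Axin2, a feedback gene of the pathway, rose by 1.55.

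In the FGF pathway several genes that FGF and ERK signals induce fell, and Dusp6, another of them, rose. Etv5, an ETS factor induced by FGF, had levels of 6.06, 6.06 and 6.01 in DMSO and 1.53, 1.46 and 1.56 in RA. It fell 22.9-fold (limma adjusted p = 8.76e-08) without overlap. Etv4 fell 24.2-fold, and the feedback inhibitor Spry4 was at least 20.2-fold higher in DMSO and not well above background in RA. Spry2 fell by 3.09 log2. Other ligands and receptors rose, Fgf9 by 3.94 from levels above background on 2 DMSO arrays, Fgf7 by 2.34 and Fgfr2 by 1.71, and the ERK phosphatase Dusp6 rose by 1.25. Across 31 genes 15 rose and 11 fell with a median of 0.32, and 12 and 13 with a median of -0.04 under spike-in scaling.

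The Nodal branch of the TGF-beta family fell and the BMP and TGF-beta branches held many rises. Nodal, a ligand of the pluripotent epiblast, lay at 3.84, 3.84 and 3.90 in DMSO and at 0.61, 0.57 and 0.63 in RA. The groups were tight and apart, and the fall was 9.58-fold (limma adjusted p = 1.48e-07). Its antagonist Lefty1 fell 22.4-fold and its coreceptor Tdgf1 40.5-fold, with 2 more Tdgf1 probes at -7.66 and -7.25. Lefty2 and Gdf3 fell by 3.89 and 4.44, though a second probe of Gdf3 lay at -1.45. On the other side Tgfb2 rose 39.9-fold, Tgfb3 by 5.24 and Bmp7 by 2.95 log2, and Bmp2 rose by 5.46 from levels above background on 1 DMSO array. Bmp4 fell by 1.03. Of 47 genes 28 rose and 13 fell, or 17 and 17 under spike-in scaling.

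Hedgehog and Notch genes showed no single direction, with 18 of 33 higher and 11 lower, and 13 and 12 under spike-in scaling. The hedgehog target Gli1 lay at 1.19, 1.19 and 1.3 in DMSO and -0.67, -0.83 and -1.0 in RA, a 4.17-fold fall (limma adjusted p = 5.24e-06) with the groups apart. Hhip, an antagonist that is a target as well, rose by 4.46. The coreceptors Gas1, Boc and Cdon rose by 5.55, 2.80 and 2.46. The Notch ligand Dll4 rose 8.19-fold, and Jag1 and Notch4 fell by 1.76 and 3.21. Dlk1, a noncanonical ligand and an imprinted gene, rose 23.3-fold.

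Other growth factor genes rose in 30 of 50 and fell in 12, with a median of 0.90. Gfra3, a receptor of the GDNF family, rose 81.9-fold, from -2.38 to -2.35 up to 3.93 to 4.11. The endothelin receptor Ednrb rose 88.2-fold, Igfbp5, which binds insulin-like growth factors, 64.1-fold, and pleiotrophin (Ptn) 44.4-fold. Kit, the stem cell factor receptor, fell 4.12-fold and its ligand Kitl rose 3.81-fold. Cxcl12 fell 1.82-fold, with a second probe at -0.20, and its receptor Cxcr4 rose 4.94-fold. The LIF receptor gene Lifr fell by 0.48 log2.

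Genes of axon guidance and cell sorting shifted upward as a group. Of 45 semaphorin, plexin, netrin, Slit and Robo genes 30 rose and 11 fell, with a median of 1.11. Sema3c, a secreted guidance cue, lay at -5.57, -5.33 and -5.30 in DMSO and at 1.04, 1.31 and 1.12 in RA. Its samples did not overlap between groups and it rose 94.2-fold (limma adjusted p = 1.41e-07), with a second probe at 6.39. Its receptor Nrp1 was at least 7.21-fold higher from below background. Robo2 and Sema3a were at least 8.97-fold and at least 7.97-fold higher from below background, and Robo4 fell 31.1-fold. Of 19 ephrin and Eph genes 12 rose and 4 fell, or 8 and 5 under spike-in scaling. Epha2, an Eph receptor of stem cells, fell 17.4-fold, from 4.24 to 4.31 down to -0.10 to 0.30, and Ephb1 was at least 22.5-fold higher in RA.

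Adhesion genes included a switch of classical cadherins. Cdh1, E-cadherin, had levels of 3.14, 3.11 and 3.16 in DMSO and 0.94, 1.08 and 1.00 in RA. It fell 4.38-fold (limma adjusted p = 8.32e-07). Cdh2, N-cadherin, lay at -1.05, -0.91 and -1.07 in DMSO and at 3.73, 4.30 and 3.86 in RA, and rose 31.4-fold (limma adjusted p = 1.05e-06), with a second probe at 5.17. In neither gene did the groups overlap. Epcam, an epithelial adhesion protein, fell by 2.67 and the desmosomal catenin Jup by 2.65, above background on 2 RA arrays, while Dsc2 and Dsp, also desmosomal, rose by 4.82 and 2.28. In the whole cadherin and catenin list 23 of 41 rose and 10 fell, or 16 and 11 under spike-in scaling. Claudins and tight junction genes were higher in 14 of 23 and lower in 6, or 10 and 7 under spike-in scaling.

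Matrix and cytoskeleton genes rose with the fibroblast markers, some of which are the same genes. Collagens rose in 24 of 32 and fell in 3, with a median of 1.81, or 1.65 with genes at their lower bounds. Col1a2 lay at -0.93, -1.05 and -1.0 in DMSO and at 5.07, 5.09 and 5.16 in RA, a 68.6-fold rise (limma adjusted p = 6.07e-08) with no overlap. Col6a1 rose by 5.19, Col4a5, above background on 2 DMSO arrays, by 4.85 and Col3a1 by 4.37 log2, or by 2.94, 2.56 and 2.19 with normexp. Actin and smooth muscle genes rose in 28 of 37 and fell in 4, with a median of 1.43. The smooth muscle actin Acta2 rose 70.7-fold, from -1.10 to -1.05 up to 4.96 to 5.24, Actc1 by 6.09 and Tagln by 4.65. The intermediate filament gene Vim (-0.06), often used as a fibroblast marker, was not called. The part of fibroblasts or feeder cells in these rises was not tested, and Lum, Postn and Fap were not well above background on any array.

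Hippo pathway targets of YAP rose in 16 of 19 and fell in 1, with a median of 1.78. Ccn1, a secreted matrix regulator, lay at -0.15, -0.17 and -0.30 in DMSO and at 3.09, 2.94 and 2.47 in RA. RA replicate 3 was the lowest of its group and still far above DMSO, and the rise was 8.23-fold (limma adjusted p = 9.86e-06). Ankrd1 was at least 21.5-fold higher from below background, Amot rose by 3.94 and Ccn2 by 1.03, and the GTPase regulator Dlc1 fell by 3.85. The keratins of simple epithelia, Krt8 and Krt18, rose 15.5-fold and 17.7-fold, from -2.35 to -2.29 up to 1.57 to 1.75 and from 1.54 to 1.62 up to 5.58 to 5.93. Nes, an intermediate filament of neural progenitors, rose 8.23-fold. Neuronal genes were split: Stmn2 and Tubb3, of differentiated neurons, fell 34.1-fold and by 2.89 log2, and Dcx, of young neurons, was at least 5.76-fold higher. Across 36 tubulin and neuronal structure genes 16 rose and 14 fell, or 12 and 14 under spike-in scaling.

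**Figure D5:**
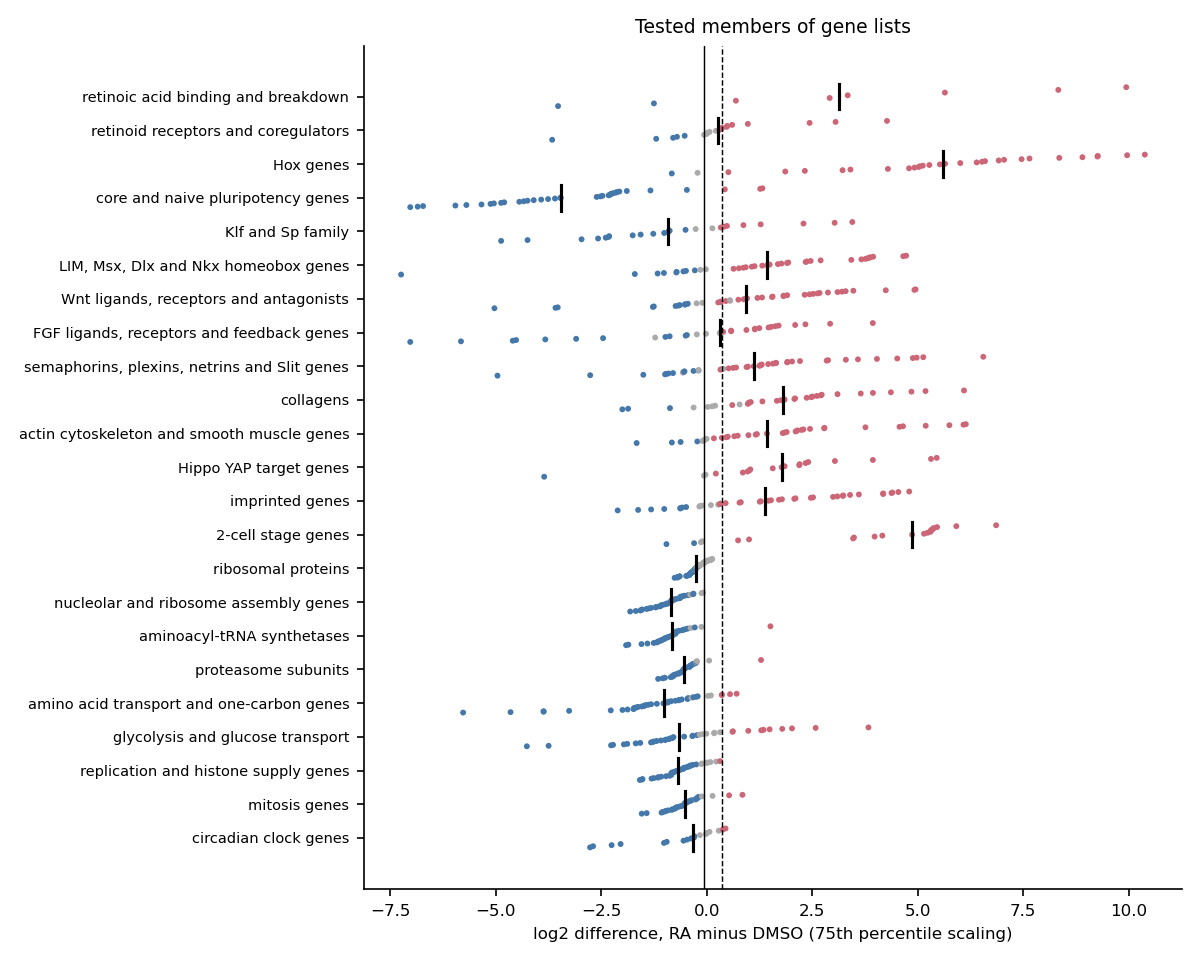
Log2 difference between RA and DMSO of every tested member of 23 gene lists, red where higher, blue where lower and grey where not called, with the list median as a black bar. The solid line is the median of all tested genes and the dashed line is 0 under spike-in scaling. Ribosome assembly, tRNA synthetase, proteasome, replication and mitosis genes form narrow groups on the left, while the pluripotency, Hox and 2-cell stage lists spread far from the line.

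Most genes of ribosome assembly, tRNA charging and the proteasome fell. Falls of at least 2-fold were 14 of 38, 12 of 35 and 2 of 34, against 15% of all tested genes. Of 38 nucleolar and ribosome assembly genes none rose in limma, nor at an unadjusted p under 0.05, and 35 fell, with a median of -0.85. Rrp9, a processing factor of ribosomal RNA, had levels of 3.18, 3.11 and 3.21 in DMSO and 1.40, 1.26 and 1.41 in RA. The groups lay apart and the fall was 3.52-fold (limma adjusted p = 2.36e-06). Nucleolin (Ncl) fell 3.21-fold, with a second probe at -1.06. Of 35 aminoacyl-tRNA synthetases 32 fell and 1, Wars2, rose, by 1.51, though its other probe lay at -0.31. Their median was -0.82. Of 34 proteasome subunits 30 fell, with a median of -0.54, and the immunoproteasome subunit Psmb8 rose 2.44-fold. Ribosomal protein genes fell in 35 of 62, and none rose in limma, nor at an unadjusted p under 0.05. Their median was -0.25. Without RA replicate 3 the falls were 43, and under spike-in scaling 49.

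Replication and mitosis genes moved the same way. Of 41 replication genes 34 fell, with a median of -0.69, including Mcm10 by 1.58, Orc1 by 1.52, Mcm2 by 0.83 and Tk1 by 1.15 log2. Of 36 mitosis genes 31 fell and 2 rose, or 33 and 0 under spike-in scaling, with a median of -0.52. Pttg1, the securin, fell by 1.54, Top2a by 1.05 and Plk1 by 0.53, and Aurkb rose by 0.85, or by 0.49 without a call under spike-in scaling. Among regulators of the cycle, Ccnd1 (cyclin D1) lay at 2.99, 2.94 and 3.02 in DMSO and at 0.45, 0.30 and 0.51 in RA, a 5.9-fold fall (limma adjusted p = 7.52e-07). Ccnd2 (cyclin D2) went from -0.87, -0.75 and -0.84 to 3.38, 3.51 and 3.36, an 18.9-fold rise (limma adjusted p = 1.38e-07). Neither gene's groups overlapped. The inhibitors Cdkn2a and Cdkn1c rose 5.18-fold and 4.21-fold, with RA replicate 3 the highest sample for each, and Mycn fell 2.03-fold.

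Amino acid and one-carbon metabolism fell in 37 of 44 genes and rose in 4, or 38 and 0 under spike-in scaling, with a median of -1.0. Tdh, which splits threonine to feed one-carbon units in mouse stem cells, had levels of 6.57, 6.45 and 6.49 in DMSO and 0.73, 0.63 and 0.83 in RA. All RA samples lay far lower, and a second probe showed a difference of -5.92 (limma adjusted p = 8.76e-08 on the first). Slc7a3, an arginine and lysine transporter, fell 25.1-fold, and Cth and Cbs, which make cysteine, by 3.87 and 3.26. Gldc, of the glycine cleavage system, fell by 1.38 and Shmt2 by 1.32. Glycolysis genes fell in 24 of 40 and rose in 10. Pdk1, which closes the route into the mitochondria, lay at 3.91 in each DMSO sample and at 0.13, 0.20 and 0.15 in RA, a 13.4-fold fall (limma adjusted p = 9.52e-08). Hk2 fell by 2.22 and Ldha by 0.99. Gapdh, often used as a reference, was not called on its brightest probe (-0.01, SE 0.06), and its 6 other probes lay between -1.32 and -0.53. Actb, another such reference, was higher by 0.36, a difference not called under spike-in scaling. Sterol and fatty acid synthesis genes fell in 24 of 41 and rose in 9, or 27 and 2 under spike-in scaling.

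Chromatin genes fell more often than they rose, as did all tested genes (42.1% lower and 35.9% higher), and the number of rises depended on the scaling. In the DNA methylation list 11 of 23 fell and 7 rose, with a median of -0.03 against -0.07 for all tested genes. Polycomb and trithorax genes fell in 25 of 42 and rose in 13, or 25 and 6 under spike-in scaling. Phc1, a PRC1 subunit of stem cells, lay at 3.95, 3.76 and 3.96 in DMSO and at 0.57, 0.80 and 0.64 in RA, a 9.35-fold fall (limma adjusted p = 7.61e-07). Its relative Phc2 rose by 2.39 log2. Cbx8, a chromobox subunit of PRC1, rose 9.56-fold, from -5.47 to -4.99 up to -1.95 to -1.90. The PRC2 core genes Eed, Suz12 and Ezh2 fell by 1.32, 1.09 and 0.50. Of the DNA methylation genes Tet1, a 5-methylcytosine dioxygenase, fell 12.1-fold, from 4.93 to 5.02 down to 1.29 to 1.47, and Dnmt3l, a cofactor of de novo methylation, 5.72-fold. Tet2 and Uhrf1 fell by 2.47 and 0.79. The remodelling ATPase gene Smarca2 rose by 2.03. BAF, NuRD and other remodelling genes fell in 20 of 43 and rose in 11, or 26 and 1 under spike-in scaling.

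Clock genes fell in 11 of 18. Bhlhe40, a repressor in the clock, fell 6.79-fold, from 0.96, 1.13 and 1.0 to -1.77, -1.76 and -1.67 (limma adjusted p = 4.82e-07), and Cry1, another repressor, 4.77-fold. The 2 rises in this list, Nfil3 (0.38) and Csnk1d (0.45), were not called under spike-in scaling. Lysosome genes split with the scaling, 15 of 40 higher and 13 lower, or 6 and 17 under spike-in scaling. Heat shock and chaperone genes fell in 13 of 35 and rose in 10, or 17 and 6 under spike-in scaling, with Hspa1a 9.13-fold higher and Hspa9 lower by 1.5.

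Cell death and interferon genes held single large changes. Of 36 genes of the Bcl2 family, caspases and death receptors 16 rose and 13 fell, or 6 and 14 under spike-in scaling. The death receptor Fas rose 5.12-fold, from -4.57 to -4.35 up to -2.19 to -2.10. Casp4, an inflammatory caspase, was at least 4.04-fold higher from below background. Bax, which opens the mitochondrial membrane, was 4.18-fold lower, with RA samples spread at 1.48, 3.31 and 1.98 (limma adjusted p = 0.00547). Among interferon and MHC class I genes 22 of 37 rose and 8 fell, with a median of 0.93. B2m, H2-D1 and H2-K1, of antigen display, rose by 2.02, 2.06 and 1.47, and Ddx58, an RNA sensor, fell by 2.60. Irf2 was at least 12.2-fold and Ifih1, another RNA sensor, at least 7.53-fold higher.

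Genes of the 2-cell embryo, which a small share of stem cells express at any time, rose in 17 of 21 and fell in 2, with a median of 4.87, or 4.16 with genes at their lower bounds. Zscan4c, a telomere factor of this state, lay at 0.99, 0.86 and 0.91 in DMSO and at 6.58, 6.41 and 6.17 in RA. The samples did not overlap, and the rise was 44.1-fold (limma adjusted p = 2.33e-07), with 2 other probes at 4.90 and 5.58. Tcstv1 rose 41.6-fold, from -3.72 to -3.40 up to 1.64 to 1.98. Zfp352, a repeat-derived gene of the list, was not called on its brightest probe (-0.14), and its other probe lay at 5.59. These genes belong to families of near-identical copies, so a probe can read several of them and the count of separate genes is uncertain. Germline and meiosis genes fell in 24 of 44 and rose in 10, or 26 and 6 under spike-in scaling. Rec8, the meiotic cohesin, rose 11.1-fold, from 3.70, 3.70 and 3.72 up to 7.09 to 7.29, and Stra8, named for its induction by RA, rose 2.6-fold from an already high 5.66 to 5.98.

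Genes that neighbour each other sometimes moved together. Of 16014 genes placed along the chromosomes, 1176 rose and 752 fell at least 4-fold. Runs of at least 3 adjacent tested genes that all rose at least 4-fold numbered 29, with 123 genes, and runs of falls 15, with 48 genes. Most genes with such changes were therefore in no run, and how many runs would arise without regard to position was not tested. The longest run of rises held 10 genes, from Hoxb9 to Hoxb1 and on to Skap1. A run of 7 held Tcstv1 and Tcstv3, and others held Pramel and Oog genes, Zscan4a, Zscan4c and Zscan4f, or 4 Tdpoz genes, families of similar copies in which shared probes cannot be told apart from shared change. The chemokine genes Cxcl5, Ppbp, Cxcl3 and Cxcl1 formed a run in which no gene was well above background in DMSO, with bounds of at least 434-fold, 10.04-fold, 14.5-fold and 35.1-fold. Among the falls were Apobec1, Gdf3 and Dppa3, then Dppa4, Dppa2 and Morc1, and Triml1, Triml2 and Zfp42, each with stem cell genes.

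Imprinted genes, expressed from 1 parental copy, rose in 27 of 40 and fell in 8, with a median of 1.38. Dlk1 lay at -0.25, -0.29 and -0.33 in DMSO and at 4.25, 4.40 and 4.11 in RA. The groups were far apart (limma adjusted p = 1.89e-07), and its other probe lay at 4.44. Igf2, a fetal growth factor, rose by 4.80 log2 from levels above background on 2 DMSO arrays. Grb10, a growth inhibitor, rose 9.37-fold with RA samples at 2.15, 1.67 and 2.62, and Peg3, Mest and Plagl1 rose by 3.40, 3.24 and 3.61. Snrpn, a splicing protein, fell 4.32-fold, with 2 further probes at -2.04 and -1.92, and Phlda2, a brake on placental growth, fell by 1.32. Meg3, a noncoding RNA of the same locus as Dlk1, rose by 0.81.

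Several genes had probes that did not move alike. Of 4177 genes with more than 1 probe past the filter 3264 were called, and in 2722 of these every other probe lay on the same side. Among changes of at least 2-fold it was 1068 of 1154. Dcc, a netrin receptor, was not called on its brightest probe (-0.56), and its others lay between 5.87 and 5.97. Cdh11 fell by 0.57 on its brightest probe and lay at 4.10 on another, so the directions of these 2 genes rest on the probe chosen. Pfkp fell 19.2-fold on one probe and lay at -0.55 on another, which leaves its size uncertain.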

How the data were processed

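Gene expression was measured in 6 samples, 3 given retinoic acid and 3 given DMSO, on one Agilent design. In the deposited scanner output each spot has an intensity, from which the background had been subtracted, per the file headers, by version 10.7.3.1 of Agilent Feature Extraction. Version 10.7 is named in the submitters' processing notes. The deposited series values are log2 per probe; each column's median was 5.18 and they rose with the log2 scanner signal (slopes 0.978 to 1.08), so their scale and direction are known, while the step that gave them equal medians is not stated in the labels or headers.

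From the processed intensity, log2 was taken and each array's 75th percentile over its 59305 non-control spots subtracted. Outlier-flagged spots were left out (128 to 186 per array), spots of a probe were averaged, and the brightest probe stood for each gene. The files pair probes with accessions and not with gene names. Accessions without versions were matched to symbols in a RefSeq gene table for GRCm38.p6, used for names and neighbours: 27235 of 55681 probes matched, giving 20660 genes. Genes passing the scanner's background test on 3 or more of the 6 arrays were tested, 16015 in all, and 14412 were above background on all 6. No spot was saturated, and 61.6% to 66.2% of spots were well above background. The number of arrays limits the precision.

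RA and DMSO samples were compared in R 4.3.3 by limma 3.58.1 (lmFit, eBayes), with Benjamini-Hochberg adjustment over all tested genes. The script was tested on simulated data with few changed genes and no slide effect or scaling shift. That setting differs from these data, so the simulation checks the code and not the calls. Where no array of a group was well above background, the fold is given as at least the mean of the bright group over, on each dim array, the higher of the probe's own signal and the lowest signal among probes well above background. The labels do not say that a replicate number marks a shared culture or day, so the main fit had no replicate block. Same-numbered samples had correlations of -0.04, -0.00 and -0.05 of their deviations from group means. With 3 samples in a group, these values cannot show whether the samples were paired. Alternatives were quantile, median and spike-in scaling, normexp on the median signal (the planned mean signal was not used here), the series values, filters, probe summaries, a replicate block and leaving out each sample.

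Named genes were set pathway and stem cell genes, the 15 largest rises and falls above background on all arrays, the 10 highest lower bounds each way, and members of gene lists with the largest changes or against their list. Other list members named were chosen after their values were seen. A few genes under these rules are not reported here. The genes and lists were chosen with earlier results of these data known.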

Additional observations from a re-analysis of the deposited data

Results flagged for a closer look

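Probes without a gene symbol were outside the comparisons above and also differed between the groups. Of 16017 such probes tested, 6145 were higher and 4328 were lower in RA in limma at an adjusted p under 0.05, and 3030 and 2139 changed at least 2-fold. Among them 8858 were named by a chromosome region, of which 3626 were higher and 2127 lower. Under the same processing, 5742 (35.9%) of the 16015 tested genes with a symbol were higher and 6745 (42.1%) were lower. Spike-in scaling changed those gene counts to 3218 higher and 7631 lower. Whether the counts of probes without a symbol also depended on the scaling was not tested. Groups of 3 samples are too small for a test of outlying samples.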

How the results depend on the processing

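Spike-in scaling gave 3218 genes higher, against 5742, and 4210 lower by at least 2-fold, against 2406, and median scaling 4054. Spike-in scaling without RA replicate 3, chosen after seeing the data, gave 4580 higher and 7988 lower. Leaving out each sample gave 5297 to 5890 genes higher, 6179 to 6917 lower, 2768 to 2853 higher by at least 2-fold and 2348 to 2515 lower. The replicate block gave 5562 higher and 6422 lower and moved no count by over 1.5 times. Without a filter on dim probes rises were 55.7% of calls, against 46% with it, and with normexp 52.4%. Of 5608 values of 298 named genes under the alternatives, 5547 were counted as unchanged, 33 lost the call, 19 gained one and 9 turned. A change of sign was counted as a turn only where the main fit or the alternative called the gene. Where neither did, it was counted as unchanged, as for Cdx2, at 0.86 and at -0.02 without RA replicate 3. Actb turned to -0.0016 with spike-in scaling. The mean of a gene's probes turned Cdh11 to 1.77, Dcc to 3.76, Zfp352 to 2.73 and Zic1 to 3.21, which follows from their other probes. Normexp turned Cdh11 to 0.0123 and Hoxc13 to 0.31, and Vim was at 0.28 with quantile normalization and at 0.30 with the series values. The cause was not tested. No list's larger count moved by over 1.5 times without RA replicate 3, and 6 list medians changed sign under spike-in scaling: receptors and coregulators, forkhead, FGF, Notch and hedgehog, tubulin and neuronal, and Bcl2 family genes. Slide could not be fitted as a block, since each slide held 1 group. For genes near background the level has only a bound.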
